A study of Mus musculus with 15 samples.

Results

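Expression confined to CAR macrophages was described for 99 of the 17030 genes in a bulk RNA-seq table of mouse bone-marrow cells. A gene was a member when its FPKM (fragments per kilobase, a level corrected for transcript length and depth) was at least 5 in all 3 CAR libraries and under 1 in each of the 12 other libraries. These thresholds were met by 115 genes. Of these, 16 were left out by symbol: Cma1, Rhox5 and genes whose symbols begin with Cd, Col, Gbp, Ifi, Il, Itg or Krt. Since the rule reads every library, the levels of members in CAR libraries against any other group are given as a description, with no test. No CAR value of a member overlapped any other library, as the rule fixes. By a different measure, the calls of a fit, 78.7% of all 11793 tested genes differed between CAR and control-CAR libraries. The same rule turned to another group found 49 genes in progenitors, 35 in BMDM and 0 in control-CAR or in Hoxb8 macrophages.

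A chimeric antigen receptor (CAR) joins an antigen-binding domain outside the cell to signalling domains inside it, and a CAR macrophage is a phagocyte that carries one. Hoxb8 is a homeobox factor whose forced expression holds myeloid progenitors in a dividing state, from which they can be matured into macrophages. Many of the member genes are best known outside the blood system: YAP and TAZ are co-activators that enter the nucleus when Hippo kinases are inactive and bind TEAD factors, and fibulins, laminins and collagen-modifying enzymes build and cross-link extracellular matrix. Another set, the ubiquitin-like protein FAT10 and the immunity-related GTPases, is known for induction by interferon gamma.

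The 15 libraries came from mouse bone-marrow primary cells in 5 groups of 3. CAR macrophages carried the genotype label of CAR expression and were CAR treated. Control-CAR macrophages were labelled as expressing, and treated with, a control CAR. Hoxb8 macrophages, bone marrow-derived macrophages (BMDM) and progenitors were wild type and untreated. The antigen bound by the CAR, the ages of the animals and the origin of replicates in separate cultures or animals are not stated by the labels, so p-values measure the spread between these libraries, which may be technical. Libraries held between 16962839 and 19221681 estimated counts. The macrophage label was checked on defining markers, and Adgre1 (F4/80) averaged 811 ± 9.96 FPKM in CAR, 1131 ± 37.2 in control-CAR and 0.49 ± 0.0693 in progenitor libraries (SD, n = 3 each). Csf1r, the receptor of macrophage colony-stimulating factor, averaged 109 FPKM in CAR libraries, against 303 in control-CAR libraries. Of 12 macrophage markers 10 fell, 1 rose and 1 was not called in CAR against control-CAR libraries, and 10 of 12 tested mast-cell and basophil markers rose, Cma1 among them, which meets the thresholds of the rule (9 of 11 without it).

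Promoter sequences are shown for 4 members: Ankrd1 and Ccn1 as textbook targets of YAP and TAZ, Nppb as a cardiac hormone gene that holds the same letters, and Tgtp1 as an interferon-inducible gene. The windows run from 250 bases before to 50 bases after 1 start site per gene, as the RefSeq table of build GRCm38.p6 sets it, printed on the gene's own strand. That site was the annotated gene start in Ankrd1, Ccn1 and Tgtp1 and lay 114 bases inside the gene in Nppb. Over the 74 member windows with a position it was the gene start in 43 and another start in 31. Capitals mark GGAATG or its complement CATTCC (the TEAD core), TATAAA, TTCNNNGAA (the gamma-activated site, GAS) and GAAANNGAAA (the interferon-stimulated response element, ISRE, core).
Ankrd1, chr19:36119795-36120094, minus strand: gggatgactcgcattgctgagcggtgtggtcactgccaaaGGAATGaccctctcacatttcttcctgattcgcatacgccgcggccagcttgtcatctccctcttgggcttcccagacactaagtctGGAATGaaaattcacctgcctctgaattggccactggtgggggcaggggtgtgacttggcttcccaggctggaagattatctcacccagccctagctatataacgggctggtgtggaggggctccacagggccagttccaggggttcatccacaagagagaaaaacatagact
Ccn1, chr3:145649936-145650235, minus strand: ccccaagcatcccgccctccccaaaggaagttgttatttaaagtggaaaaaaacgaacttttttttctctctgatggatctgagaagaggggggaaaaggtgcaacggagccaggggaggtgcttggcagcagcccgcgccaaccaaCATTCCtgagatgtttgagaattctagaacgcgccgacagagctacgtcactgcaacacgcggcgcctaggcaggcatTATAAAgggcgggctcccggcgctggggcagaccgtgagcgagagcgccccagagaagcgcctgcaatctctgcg
Nppb, chr4:147985650-147985949, plus strand: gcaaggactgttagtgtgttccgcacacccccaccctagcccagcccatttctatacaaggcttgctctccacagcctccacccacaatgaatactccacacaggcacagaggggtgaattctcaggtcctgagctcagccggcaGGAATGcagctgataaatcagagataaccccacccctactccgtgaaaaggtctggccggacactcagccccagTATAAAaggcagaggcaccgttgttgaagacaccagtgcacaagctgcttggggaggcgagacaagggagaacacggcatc
Tgtp1, chr11:48992197-48992496, minus strand: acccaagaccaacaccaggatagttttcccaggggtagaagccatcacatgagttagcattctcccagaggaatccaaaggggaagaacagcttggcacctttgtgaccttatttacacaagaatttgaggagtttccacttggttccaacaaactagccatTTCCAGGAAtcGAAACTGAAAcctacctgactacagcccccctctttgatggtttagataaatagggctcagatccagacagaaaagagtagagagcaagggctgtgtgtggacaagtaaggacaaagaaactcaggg
In Ankrd1 the TEAD letters began 210 bases before the window's start site and again closer to it, and in Ccn1 and Nppb they began 103 and 105 bases before it. In Tgtp1 the ISRE core began 77 bases and the GAS letters 88 bases before it.

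RefSeq promoters of this kind were matched to 75 of the 99 members and to 13403 other genes of the table. GGAATG on either strand was present in 19 member promoters (25.33%) and in 1652 of the other promoters (12.33%). These 19 included Yap1, Wwtr1, Smo, Flnc, Prrx1 and Tph1 beside the 3 shown above. The GAS letters were present in 9 of the 75 member promoters and 7.16% of the others, and the ISRE core in 3 (4.0%) and 3.16%. NF-kB letters (GGGA and CC spaced by 4 bases) stood in 33.33% of member promoters and 25.34% of the others, AP-1 letters (TGANTCA) in 8.0% and 5.98%, and CRE letters (TGACGTCA) in 2.67% and 2.79%. The E-box CANNTG was less frequent, in 54.67% of member promoters and 65.87% of the others. TATAAA, counted on the gene's strand only, stood in 6.67% and 5.74%, and the CArG box in 1.33% and 1.4%. The median GC content was 60.3% in member promoters and 59.3% in the others, while the ratio of observed to expected CpG was 0.574 in members, 0.701 in all other genes and 0.798 in the 6716 others that reached 5 FPKM in CAR. These shares are descriptions of letters and carry no test, and windows can hold letters of several motifs at once.

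**Figure D1:**
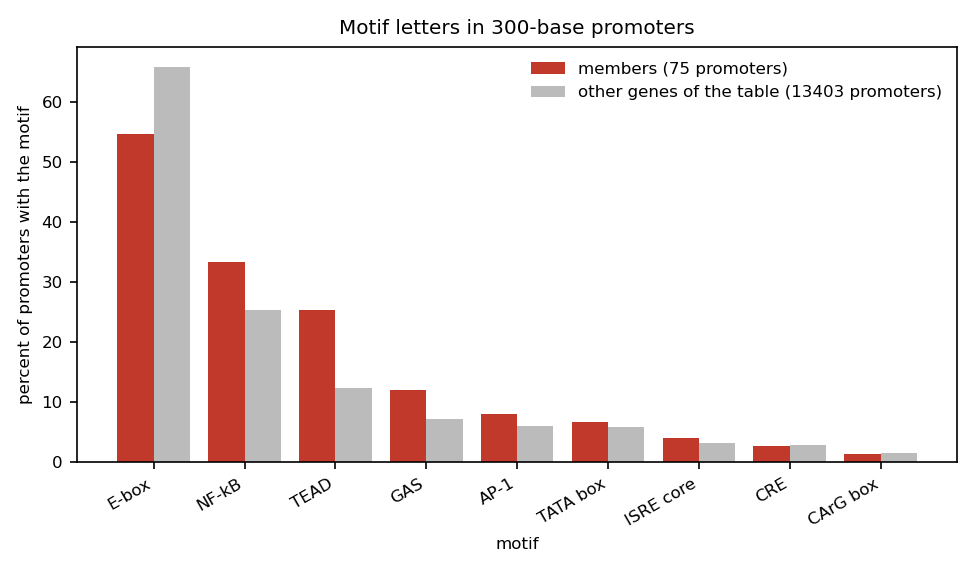
Percent of 300-base promoters that hold each motif, for the 75 members with a RefSeq promoter (red, left of each pair) and the 13403 other genes of the table (grey). TEAD letters stand in 25.33% of member promoters and 12.33% of the others.

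Mean FPKM over the 3 CAR libraries ran from 5.36 (Fam174b) to 364 (Ubd) with a median of 9.88 over the 99 members. A mean of at least 20 was held by 26 members, at least 50 by 11 and at least 100 by 2, while 51 averaged under 10. Together the members took 0.432% to 0.433% of all estimated counts in CAR libraries, 0.00142% to 0.0018% in control-CAR, 0.00151% to 0.00192% in Hoxb8 macrophages, 0.00579% to 0.00611% in BMDM and 0.00166% to 0.002% in progenitors. In bulk RNA, fewer cells that hold a transcript and less of it per cell cannot be told apart. The coefficient of variation over the 3 CAR libraries had a median of 4.18% in members and 3.35% in the 7766 other genes of the same range of levels. Between 5 and 10 FPKM it was 5.59% in members and 4.88% in 1956 other genes. The CAR libraries thus gave nearly the same level for most members, as for other genes. The widest spread, 21.9%, was in Prl2c3 at 5.73, 7.76 and 5.17 FPKM. Library pairs were also compared over all genes by a chi-square per degree of freedom, which is low where little beyond counting error separates 2 libraries. It was 1.391 to 1.969 in CAR, 2.017 to 3.364 in progenitors and 2.878 to 14.646 in control-CAR. In Hoxb8 macrophages it was 4.663 to 8.107, and in BMDM 6.39 to 20.367.

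**Figure D2:**
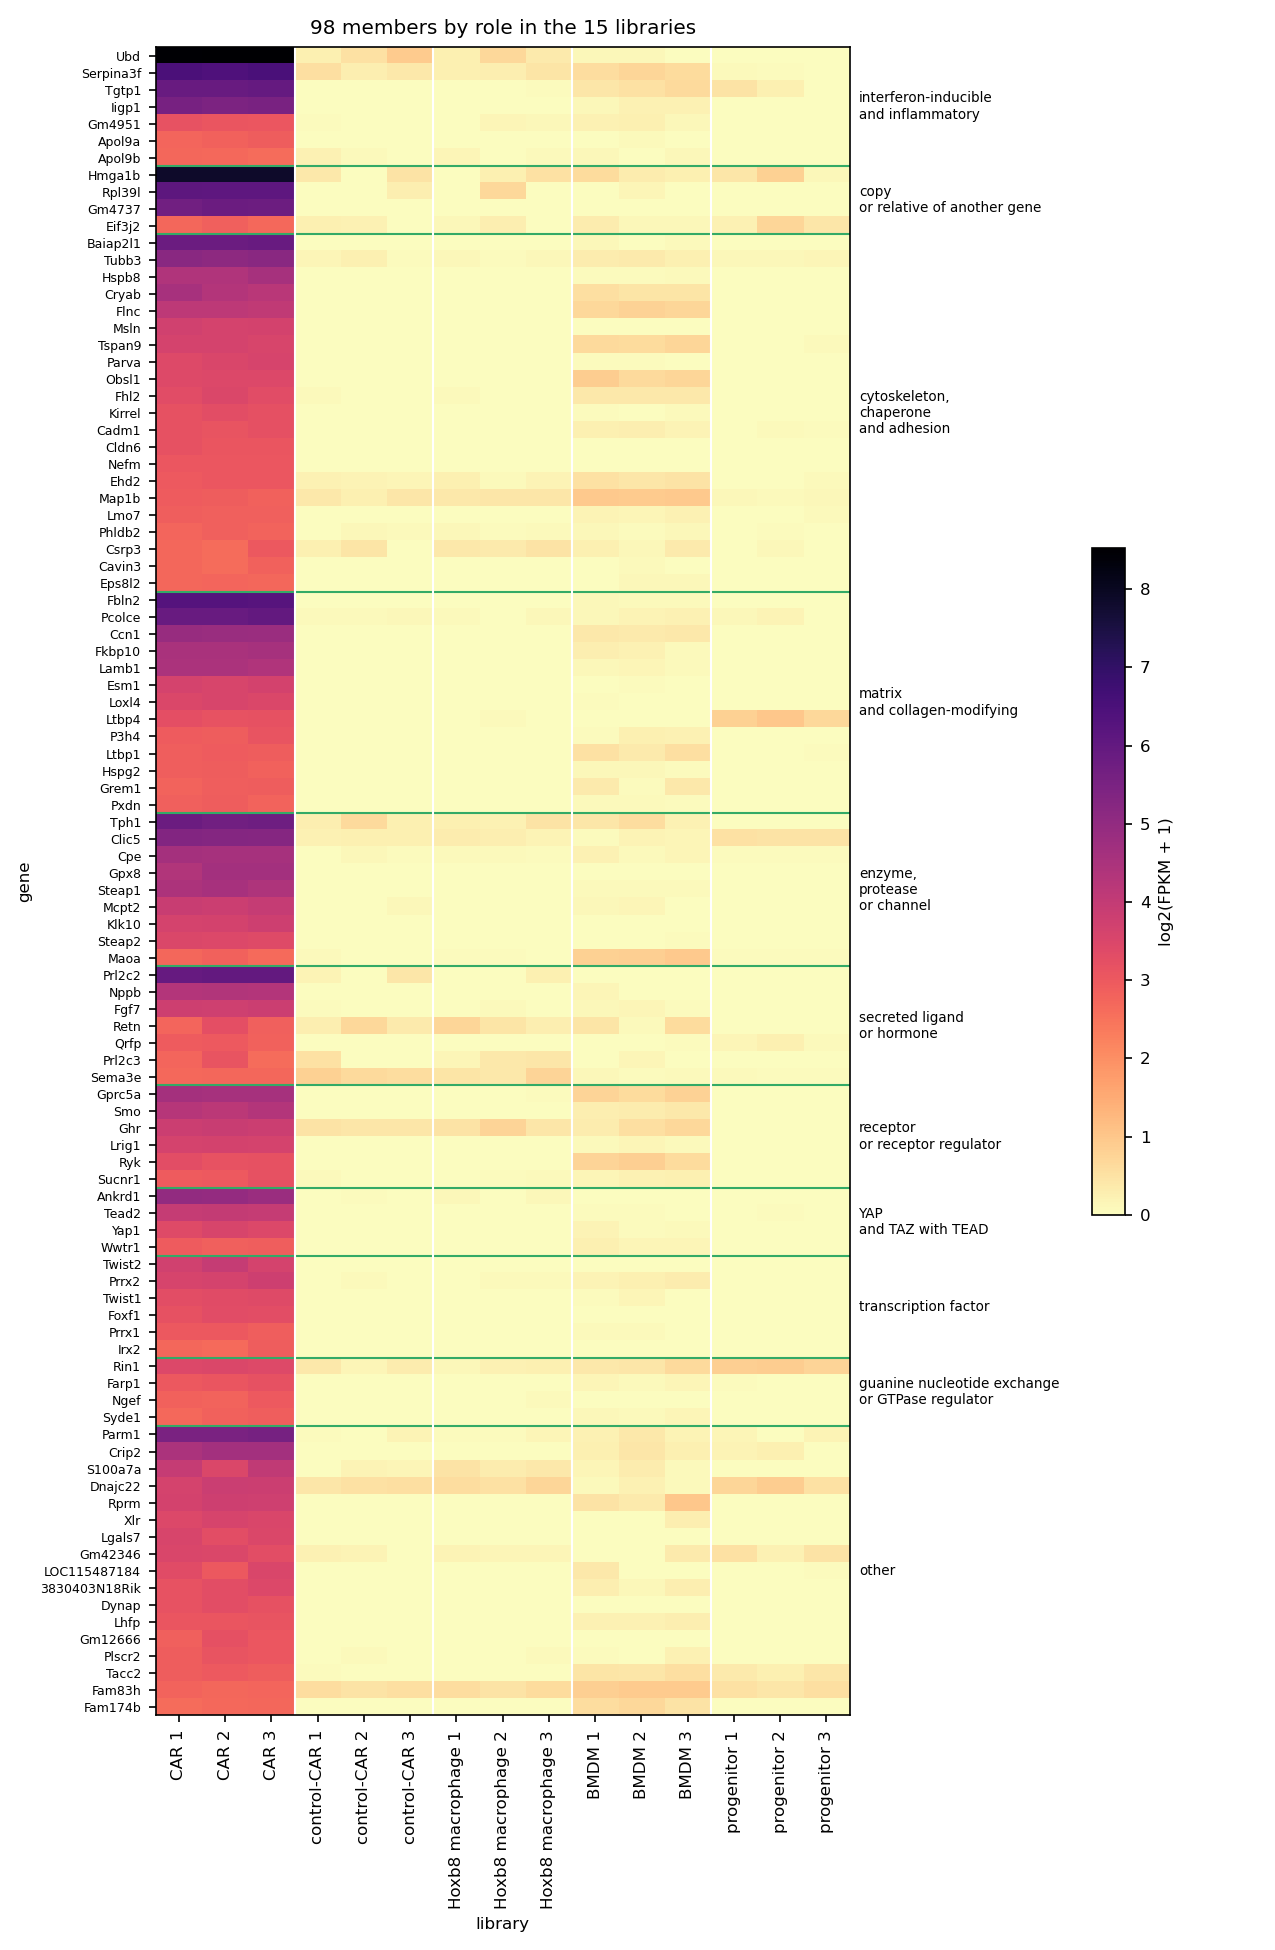
log2(FPKM + 1) of 98 of the 99 members (rows, grouped by role and ordered by CAR level) in the 15 libraries (columns, CAR at the left). The 3 CAR columns hold every value of at least 5 FPKM, and the faint colour elsewhere is mostly in the 3 BMDM columns.

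Genes known to be inducible by interferon or in inflammation made up 7 members and 2 of the 3 highest. Ubd, which encodes the ubiquitin-like protein FAT10 that targets proteins to the proteasome, had 356.15, 367.09 and 368.96 FPKM in CAR libraries and at most 0.9 in any other library. Serpina3f, an inhibitor of serine proteases, had 88.87, 85.29 and 90.86 FPKM in CAR libraries and at most 0.65 elsewhere. Both also had reads in every control-CAR library, Ubd with 0.19, 0.44 and 0.9 FPKM. Tgtp1, an immunity-related GTPase that acts on the vacuoles of intracellular parasites, had 58.06, 57.59 and 60.13 FPKM in CAR, with 0.35, 0.43 and 0.57 in BMDM and 0, 0 and 0 in control-CAR libraries. Iigp1, a GTPase of the same family, had 45.78, 42.86 and 44.89 FPKM in CAR and at most 0.15 elsewhere. Gm4951, Apol9a and Apol9b, the other members of the group, averaged 5.37 to 7.60 FPKM in CAR libraries. Gm4951 lies 125 kb from Iigp1 on chromosome 18 and Apol9a 318 kb from Apol9b on chromosome 15.

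Matrix proteins and enzymes that modify collagen formed a group of 13. Fbln2, the matrix glycoprotein fibulin 2, had 76.53, 76.31 and 75.28 FPKM in CAR libraries and at most 0.09 elsewhere. Pcolce, which enhances cleavage of the procollagen C-propeptide, had 57.85, 57.82 and 62.9 FPKM, with at most 0.17 in another library. Ccn1, a matricellular protein that binds integrins, had 28.31, 27.6 and 27.07 FPKM in CAR, 0.3, 0.28 and 0.3 in BMDM and 0 in the 9 other libraries. BMDM were thus the only other group with reads of Ccn1. Fkbp10, a prolyl isomerase of collagen folding in the endoplasmic reticulum, had 21.64, 21.62 and 22.75 FPKM in CAR and at most 0.23 elsewhere. P3h4, which takes part in collagen lysine hydroxylation, lies 978 bases from Fkbp10 on chromosome 11 and had 6.65, 6.53 and 7.62 FPKM. Lamb1, the laminin beta 1 chain of basement membranes, had 21.17, 21.56 and 19.97 FPKM in CAR and at most 0.1 elsewhere. The others, including the cross-linking oxidase Loxl4, the basement-membrane proteins Hspg2 (perlecan) and Pxdn (peroxidasin), the TGF beta binding proteins Ltbp1 and Ltbp4 and the BMP antagonist Grem1, averaged 6.23 to 11.2 FPKM. Ltbp4 stood apart in its reference level, with 0.77, 0.98 and 0.6 FPKM in progenitors and at most 0.05 in the other 9 libraries outside CAR.

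The co-activators Yap1 and Wwtr1 (TAZ), the partner Tead2 and the target Ankrd1 were all members. Yap1 had 9.47, 10.73 and 9.87 FPKM in CAR libraries, 0, 0 and 0.01 in control-CAR, 0.14, 0.03 and 0.07 in BMDM and 0 in all Hoxb8 macrophage and progenitor libraries. Wwtr1 had 6.66, 6.16 and 6.4 FPKM in CAR libraries, 0.18, 0.11 and 0.12 in BMDM and 0 in the 9 others. Tead2, a DNA-binding partner of both, had 14.45, 14.94 and 14.54 FPKM in CAR and at most 0.03 elsewhere. The co-activators thus had their residual reads almost entirely in BMDM. Ankrd1, a nuclear and sarcomeric ankyrin-repeat protein used as a readout of YAP, had 30.95, 29.96 and 27.31 FPKM in CAR libraries, 0.08, 0 and 0.08 in Hoxb8 macrophages and 0 in BMDM.

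Of 6 transcription factors, Twist2 had the highest level, with 12.13, 14.33 and 11.3 FPKM in CAR libraries and a count of 0 in the 12 others. Twist2 and Twist1 (9.17 ± 0.319 FPKM in CAR, SD, n = 3) are basic helix-loop-helix factors of mesenchyme. Prrx2 (11.7 ± 0.909) and Prrx1 (6.87 ± 0.376) are homeobox factors of limb and craniofacial mesenchyme. Foxf1, a forkhead factor of gut and lung mesenchyme, had 8.04, 8.98 and 8.67 FPKM, and Irx2, an Iroquois homeobox factor, had 5.5, 5.33 and 6.55. Both had a count of 0 in all 12 other libraries.

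Secreted ligands and hormones numbered 8. Prl2c2, proliferin, a placental hormone of the prolactin family, had 59.63, 62.34 and 62.12 FPKM in CAR and at most 0.33 elsewhere. Nppb, brain natriuretic peptide, had 18.79, 19.42 and 18.74 FPKM in CAR and at most 0.11 elsewhere. Neither gene thus reached 0.5 FPKM outside CAR. Fgf7, an epithelial growth factor made by mesenchyme, averaged 12.7 FPKM, and Retn (resistin), Qrfp, Prl2c3 and the semaphorin Sema3e averaged 5.51 to 6.80. Sema3e had the highest level of these 8 in control-CAR libraries, at 0.75, 0.58 and 0.49 FPKM.

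Receptors and their regulators numbered 6. Gprc5a, an orphan receptor induced by retinoic acid, had 23.34, 23.16 and 23.14 FPKM in CAR libraries and 0.68, 0.52 and 0.72 in BMDM. Smo, the signal transducer of the Hedgehog pathway, had 17.98, 16.89 and 18.71 FPKM in CAR, 0.21, 0.25 and 0.31 in BMDM and 0 in the 9 others. Gprc5a and Smo thus shared BMDM as the next highest group. Ghr, the growth hormone receptor, averaged 13.3 FPKM in CAR, and Lrig1, which restrains EGF-family receptors, averaged 11.3. Ryk, a Wnt co-receptor, had 8.8, 7.77 and 8.15 FPKM in CAR and 0.69, 0.81 and 0.55 in BMDM, and the succinate receptor Sucnr1 averaged 7.23 in CAR.

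Cytoskeletal, chaperone and adhesion genes were the largest group, with 21 members. Baiap2l1, a membrane-bending protein that binds actin regulators, had 55.13, 55.45 and 58.2 FPKM in CAR and at most 0.09 elsewhere. Tubb3, a beta tubulin known from neurons, had 34.93, 33.12 and 34.98 FPKM in CAR and at most 0.26 elsewhere. The small heat-shock proteins Hspb8 and Cryab averaged 20.9 and 19.6 FPKM in CAR, and the actin cross-linker Flnc 15.97. Neuronal cytoskeleton was further represented by Nefm (7.31 FPKM) and Map1b (6.47), and muscle structures by Obsl1 (9.87), Fhl2 (9.35) and Csrp3 (5.91). Among adhesion genes Msln (mesothelin, a surface protein of mesothelium, 11.6 FPKM) and the tight-junction gene Cldn6 (7.69) had a count of 0 in all 12 other libraries, while Cadm1, Kirrel, Tspan9 and Parva averaged 7.96 to 11.03 FPKM in CAR. Regulators of small GTPases were Rin1 (9.90 FPKM), Farp1, Ngef and Syde1 (5.93).

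Enzymes, proteases and channels numbered 9. Tph1, the tryptophan hydroxylase of serotonin synthesis, had 54.71, 50.66 and 52.93 FPKM in CAR libraries and at most 0.57 elsewhere. Clic5, an ion-channel-like protein tied to the actin cortex, had 38.74, 37.54 and 37.15 FPKM in CAR and 0.44, 0.4 and 0.4 in progenitors. Cpe, which trims peptide hormones, had 23.57, 22.73 and 22.98 FPKM in CAR and at most 0.17 elsewhere. Progenitors were the next highest group for Clic5, whereas BMDM were for Cpe. Gpx8, a peroxidase of the endoplasmic reticulum, had 19.17, 23.88 and 24.15 FPKM in CAR and a count of 0 in the 12 other libraries. Steap1, of the STEAP metalloreductase family, had 20.76, 22.56 and 20.22 FPKM in CAR and at most 0.06 elsewhere. Its relative Steap2, 41.7 kb away on chromosome 5, averaged 9.88 FPKM in CAR. The mast-cell and mucosal protease Mcpt2 averaged 13.7 FPKM, the kallikrein Klk10 11.98 and Maoa, which degrades serotonin, 5.63.

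The remaining named members had no shared role. Parm1, a mucin-like membrane protein first described in androgen-regulated prostate, had 43.57, 44.09 and 46.78 FPKM in CAR libraries and at most 0.3 elsewhere. Crip2, a LIM-domain protein, had 21.13, 23.89 and 23.82 FPKM and at most 0.35 elsewhere. The other 15 ungrouped members averaged 5.36 to 13.5 FPKM in CAR, from Fam174b to S100a7a.

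**Figure D3:**
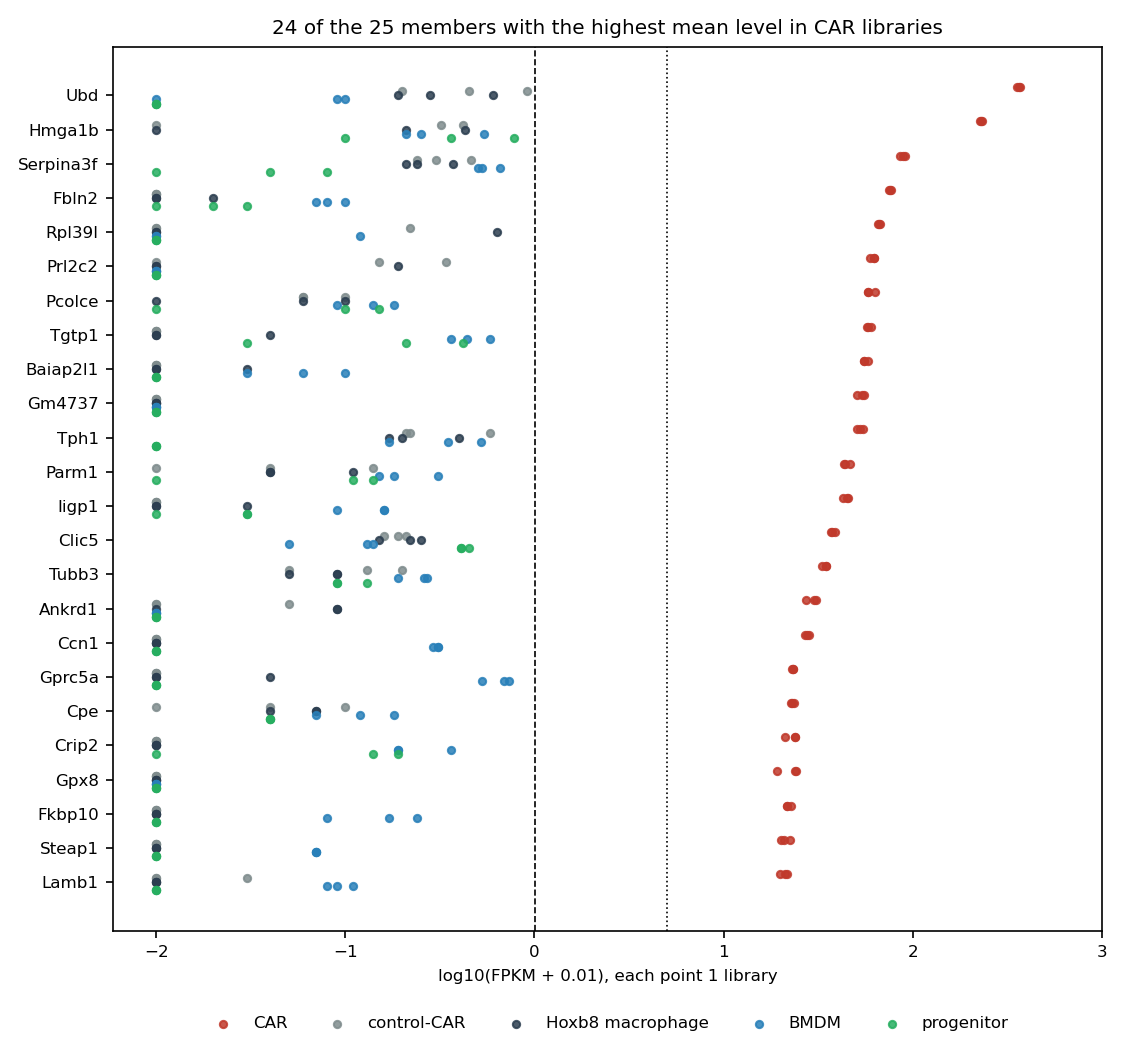
log10(FPKM + 0.01) of 24 of the 25 members with the highest mean in CAR (rows) in each of the 15 libraries (points, CAR in red and highest in each row). The dotted and dashed lines mark 5 and 1 FPKM, the thresholds of the rule, and values at the left edge are FPKM of 0.

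Several of the highest members are near-copies of another gene, so their levels rest on how RSEM split shared reads and are uncertain. At 95% identity over at least 50% of the transcript, 9 of the 96 members with a GENCODE transcript had such a copy in the table. Hmga1b, a copy of the chromatin protein gene Hmga1 with 99.8% identity, was listed at 227.28, 231.81 and 229.27 FPKM in CAR libraries and at most 0.77 elsewhere. Hmga1 itself averaged 607 ± 9.35 FPKM in CAR and 329 ± 22.7 in control-CAR libraries, and the pair summed to 836 and 329 (n = 3 each). Gm4737, 99.7% identical to the adenosylhomocysteinase gene Ahcy, was listed at 50.85, 55.05 and 53.82 FPKM in CAR and at 0 in the 12 others, while Ahcy averaged 18.4 in CAR and 7.20 in control-CAR. The sum of Ahcy and Gm4737 was 71.6 FPKM in CAR but 144 in progenitors, so the confinement to CAR holds for the listed copy and not for the sum. Tgtp1 and Tgtp2 summed to 273 FPKM in CAR, 0.733 in control-CAR and 11.2 in progenitors, and Eif3j1 and Eif3j2 to 27.4 in CAR, 17.1 in control-CAR and 66.7 in progenitors. Prl2c2, Prl2c3 and the non-member Prl2c5 summed to 77.2 FPKM in CAR and 1.31 in control-CAR. The sums with Hmga1, Tgtp2, Eif3j1 and Prl2c5 thus also passed the rule's limit of 1 FPKM outside CAR. Apol9a and Apol9b, both members, summed to 11.4 FPKM in CAR and 0.0667 in control-CAR, and the X-linked 3830403N18Rik, a member with 96.2% identity to the member Xlr, averaged 8.83. Rpl39l, a relative of the ribosomal protein gene Rpl39 below the identity limit, had 67.57, 66.23 and 66 FPKM in CAR and at most 0.62 elsewhere, while Rpl39 averaged 696 in CAR and 979 in control-CAR.

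The rule has sharp edges. The members nearest to 5 FPKM in their lowest CAR library were Cavin3 (5.08), Fam174b (5.1), Apol9b (5.1), Prl2c3 (5.17) and Csrp3 (5.18), and just outside lay Sox9 (4.88), Gjc1 (4.82), Spire2 (4.8) and Rhbdf1 (4.78). The members nearest to 1 FPKM in another library were Ltbp4 and Rprm (0.98 each), Maoa (0.92), Map1b (0.91) and Ubd (0.9), and just outside lay Bgn (1.08), Rtn2 (1.12), Serpinh1 (1.14), Hs3st1 (1.16) and Syt7 (1.21).

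Below 1 FPKM the members still differed between the groups. A count of 0 in all 12 other libraries was found for 11 members, namely Gm4737, Gpx8, Twist2, Klk10, Msln, Lgals7, Foxf1, Dynap, Cldn6, Gm12666 and Irx2. A count of 0 in a library allows up to 3 counts, for counting error only. All 3 libraries were at 0 for 54 members in control-CAR, 50 in Hoxb8 macrophages, 14 in BMDM and 64 in progenitors, while all 3 were above 0 for 19 members in control-CAR, 27 in Hoxb8 macrophages, 66 in BMDM and 18 in progenitors. BMDM held the highest mean of the 4 groups for 68 members, progenitors for 8, Hoxb8 macrophages for 8 and control-CAR for 4. Over the whole table BMDM libraries also had the most genes with reads of these groups, 14343 to 14522. The range was 12947 to 13160 in control-CAR, 13026 to 13106 in Hoxb8 macrophages and 12539 to 12598 in progenitors. The shares of all genes were not counted in the same way, so these counts are not read as particular to the members. The largest level of any member outside CAR was 0.98 FPKM, and 23 members passed 0.5 FPKM in any other library.

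The rule read all libraries outside CAR and held each under 1 FPKM, and every member passed the filter on low values through CAR alone. Levels in BMDM against Hoxb8 macrophages are therefore described here, and the calls of the fit are printed without being used as a test. All 3 BMDM libraries lay above all 3 Hoxb8 macrophage libraries for 49 members and below them for 6, while 44 overlapped, 11 of these at 0 in all 6 libraries. The share of all genes without overlap was not counted, and calls of the fit are a different measure, so these counts are not read as particular to the members. The fit across all genes (edgeR quasi-likelihood, Benjamini-Hochberg adjusted p under 0.05) gave 49 higher and 6 lower calls, 55.6% of members, and called 70.3% of all 11793 tested genes, 38.3% higher and 32.0% lower. Nothing is read from these shares, because the rule used the members' values. Flnc had 104, 120 and 110 counts in BMDM libraries and 0, 0 and 0 in Hoxb8 macrophage libraries, at least 30.9-fold higher against 3 counts per library. Tspan9, a tetraspanin, had 39, 37 and 45 counts in BMDM and 0 in all 3 Hoxb8 macrophage libraries, at least 11.2-fold higher. No library of either gene overlapped between the groups. Maoa had 56, 59 and 68 counts in BMDM and 2, 3.04 and 1 in Hoxb8 macrophages, with a log2 fold change of 4.60 (SE 0.33). Ltbp1 had 47, 31 and 47 counts in BMDM and 2, 2 and 1 in Hoxb8 macrophages, with a log2 fold change of 4.30 (SE 0.34). Map1b, the member with the most reads in both groups, had 201, 191 and 201 counts in BMDM and 60, 67 and 72 in Hoxb8 macrophages (log2 fold change 1.31, SE 0.14).

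Wwtr1 had 15, 9 and 10 counts and Yap1 9, 2 and 5 counts in BMDM, and both had 0 in all Hoxb8 macrophage libraries. Ccn1 had 10, 9 and 10 counts, Smo 15, 17 and 22 and Lamb1 8, 10 and 7 in BMDM, again with 0 in Hoxb8 macrophages. Sema3e lay the other way, with 11, 4 and 7 counts in BMDM and 44, 37 and 79 in Hoxb8 macrophages (log2 fold change -3.11, SE 0.35). Dnajc22 had 1, 3 and 1 counts in BMDM and 10, 9 and 13 in Hoxb8 macrophages. Ubd, Ankrd1 and Ngef had at most 7 counts in a library of either group.

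Markers of other cell types also differed between these groups. The summed FPKM of 13 fibroblast markers (Vim and S100a4, which macrophages express, left out) ran from 60.7 to 85.8 in BMDM and from 17.3 to 19.3 in Hoxb8 macrophages. The sum of 8 B-cell markers ran from 30.3 to 55.3 in BMDM and from 0.15 to 0.31 in Hoxb8 macrophages, and that of 12 neutrophil markers from 4923 to 11470 and from 1243 to 1489. Thy1 averaged 50.2 ± 13.2 FPKM in BMDM and 1.04 ± 0.359 in Hoxb8 macrophages. The part of these cells in the members' BMDM reads was not tested.

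**Figure D4:**
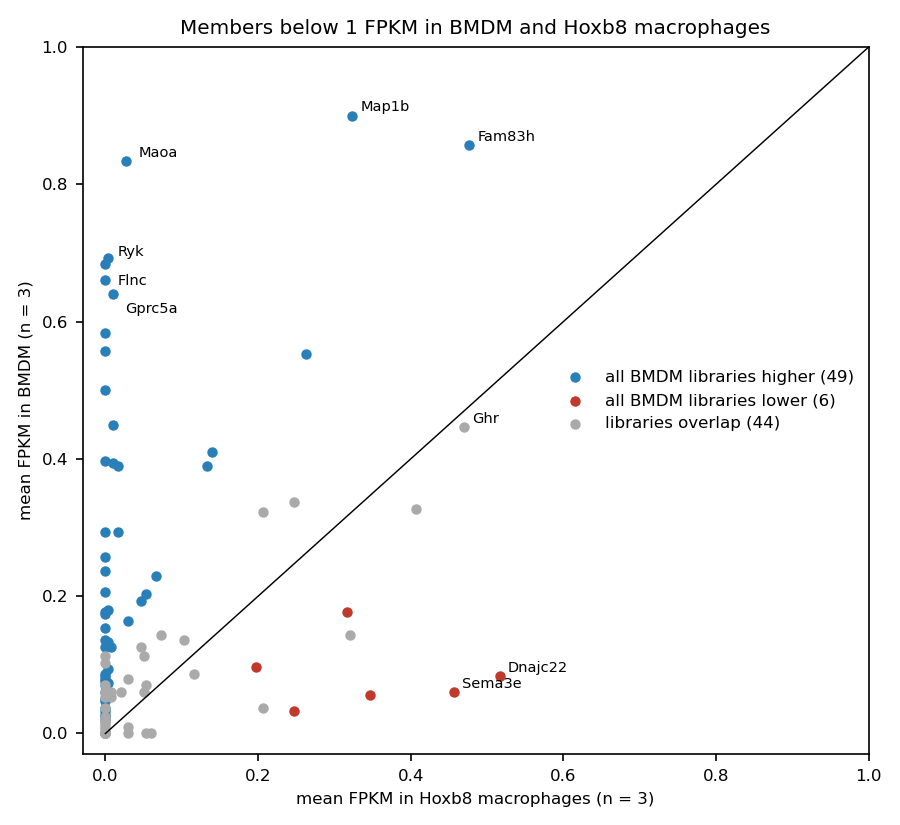
Mean FPKM of each member in BMDM (vertical axis) and in Hoxb8 macrophages (horizontal axis), n = 3 libraries each, with the line of equal level. The 49 members with all BMDM libraries above all Hoxb8 macrophage libraries are blue, the 6 with all below are red, and the 44 whose libraries overlap are grey.

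The other pairs of groups outside CAR share libraries with the first pair, and the rule held them under the same limit. They are described in the same way, and nothing is read from the calls of the fit on members. The share of all genes without overlap was not counted for these pairs either. In Hoxb8 macrophages against progenitors all libraries were higher for 12 members, lower for 6 and overlapping for 81, of which 45 were at 0 in all 6. The fit gave 18 higher and 6 lower calls there (24.2% of members), and called 84.3% of all tested genes, 44.7% higher and 39.6% lower. Ghr had 13, 19 and 15 counts in Hoxb8 macrophages and 0 in all progenitors, and Tph1 had 4, 6 and 7 counts against 0. Sema3e had 44, 37 and 79 counts in Hoxb8 macrophages and 8, 5 and 4 in progenitors. Ltbp4 had 2, 3 and 1 counts in Hoxb8 macrophages and 62, 82 and 50 in progenitors, and Tacc2 had 1, 1 and 1 against 30, 22 and 33. These levels thus ran in either direction. In BMDM against progenitors all libraries were higher for 55 members and lower for 5, and the fit gave 63 higher and 4 lower calls (67.7%), and called 87.3% of all tested genes, 46.6% higher and 40.7% lower. In control-CAR against Hoxb8 macrophages all libraries were higher for 0 members and lower for 2. There edgeR called 0 of 99 members and 2.62% of all tested genes (0.721% higher and 1.9% lower), while DESeq2 called 0 members and limma on log2(FPKM + 0.1) called 1. The rule held each member under 1 FPKM in both groups, as in the other pairs, and the reason for the few calls here was not tested.

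These counts depend on the scale. edgeR's normalization sets the bulk of genes to no change, with a median log2 fold change of 0.058 over all tested genes in Hoxb8 macrophages against progenitors, whereas limma on log2(FPKM + 1) gave -0.563. Of all tested genes it called 3045 higher and 7173 lower there, 5758 and 2617 in BMDM against Hoxb8 macrophages (median 0.16), and 3694 and 6956 in BMDM against progenitors (median -0.477). Of the members it called 11 higher and 8 lower in Hoxb8 macrophages against progenitors, 41 and 4 in BMDM against Hoxb8 macrophages, and 45 and 7 in BMDM against progenitors. With counts floored at 3 per library, 41 members lay at or under the floor in both BMDM and Hoxb8 macrophages, 77 in both Hoxb8 macrophages and progenitors and 42 in both BMDM and progenitors.

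Genes that sit beside members on the chromosome were tested between CAR and control-CAR libraries, since the rule did not select on them. Of 188 neighbours, 124 passed the filter on low values, 69 rose and 35 fell (83.9% called, beside 78.7% of all tested genes, with 55.6% higher beside 41.9%). The median log2 fold change was 0.289 in neighbours and 0.064 in all tested genes. Among genes with at least 1 FPKM in at least 3 of the 12 other libraries, which did not need CAR expression to be tested, 54 of 109 neighbours rose and 35 fell (81.7% called, median log2 fold change 0.227), beside 39.5% higher and 38.4% lower of 11293 genes (77.9% called). Of the 68 tested neighbours within 50 kb, 37 rose and 19 fell.

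The other 15 neighbours were tested through CAR alone, where a gene has to be high to be tested, and they include 7 of the 8 with the largest fitted changes, so these are given as levels. Tead1, a TEAD factor, which lies 87668 bases from Parva, had 2.85, 2.73 and 2.37 FPKM in CAR and 0 in all control-CAR libraries, at least 120-fold higher against 3 counts per library. Tead4, 83565 bases from Tspan9, had 3.71, 4.23 and 3.99 FPKM in CAR and 0 in control-CAR, at least 50.9-fold higher. Amotl2, an angiomotin that binds YAP and the only one of the 8 that passed the filter outside CAR, lies 101502 bases from Ryk and had 7.0, 7.86 and 7.57 FPKM in CAR against 0, 0.03 and 0 in control-CAR. No library of these 3 genes overlapped between the groups, which the filter made likely for Tead1 and Tead4. The share of all genes without overlap was not counted. Irx1, 660707 bases from Irx2, had 4.71, 6.49 and 5.47 FPKM in CAR and 0 in control-CAR, at least 46.1-fold higher. Vangl1, a planar polarity protein, Cfap69, which lies 597 bases from Steap2, Ddah1 beside Ccn1 and Apol7a beside Apol9a averaged 1.97 to 5.007 FPKM in CAR and 0 in control-CAR libraries.

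Genes with the same name stem as a member numbered 430, of which 297 were tested. CAR libraries had 128 of them higher and 111 lower than control-CAR (80.5% called, beside 78.7% of all), with a median log2 fold change of 0.07, close to the 0.064 of all tested genes. Without the 17 tested through CAR alone, 112 of 280 were higher and 111 lower. The relatives with the largest fitted changes, 7 of these 8 tested through CAR alone, were Tead1, Tead3, Tead4, Irx1, Apol7a, Ccn2, Cavin2 and Fkbp9. Tead3 had 2.99, 2.93 and 2.67 FPKM in CAR and 0 in control-CAR (at least 31.0-fold higher). Each of the 4 TEAD genes thus had reads in CAR and none in control-CAR libraries. The rule chose Tead2 for that pattern, and Tead1, Tead3 and Tead4 were tested through CAR alone, so nothing is read from it. Ccn2, a close relative of Ccn1 and like it a YAP target, had 3.75, 3.03 and 3.59 FPKM in CAR and 0 in control-CAR. Fkbp9, like Fkbp10 an isomerase of the endoplasmic reticulum, had 21.75, 21.86 and 21.7 FPKM in CAR and 0.02, 0 and 0 in control-CAR (adjusted p = 3.89e-15).

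Lists of genes from pathways and families, here called partner lists, were compared in the same way, without the members. They were chosen with earlier results of these data known, and some hold no member, so their counts are descriptions. Of 129 tested list genes 84 rose and 32 fell in CAR against control-CAR libraries (89.9% called, beside 78.7% of all), with a median log2 fold change of 1.35, or 1.34 with counts floored at 3. Cdh2, Itga3 and Rhox5 meet the thresholds of the rule, and without them 81 of 126 rose. Among the 111 genes that passed the filter outside CAR, 66 rose and 32 fell, and the median log2 fold change was 0.65. Of all 11293 such genes 39.5% were higher and 38.4% lower, with a median of 0.013. On the FPKM scale the split of all genes shifted from 4946 higher and 4334 lower to 6713 and 2770, and the median log2 fold change from 0.064 to 0.291. By that scale 85 neighbours were higher and 28 lower, and 171 relatives higher and 62 lower.

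All 22 genes of the interferon gamma list were called, with 15 higher and 7 lower in CAR. All 22 passed the filter outside CAR. The largest fitted rises were Tgtp2, Nlrc5, Ido1 and Igtp, of which Ido1 rests on counts of 0 in control-CAR. Nlrc5, the activator of MHC class I genes, had 27.87, 27.9 and 27.26 FPKM in CAR and 0.12, 0.08 and 0.11 in control-CAR (log2 fold change 7.77, SE 0.12, adjusted p = 2.73e-19). Igtp, an immunity-related GTPase, had 240.21, 235.84 and 236.32 FPKM in CAR and 6.48, 6.5 and 6.54 in control-CAR (adjusted p = 2.91e-18). Ido1 had 0.19, 0.27 and 0.41 FPKM in CAR, 19 counts in all, and 0 in control-CAR, at least 1.64-fold higher against 3 counts per library. Among the 7 falls, named after their values were seen, were Ifngr1 and Ifngr2, both chains of the interferon gamma receptor. Ifngr1 averaged 22.5 FPKM in CAR and 37.0 in control-CAR, and Ifngr2 57.4 and 111.

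In the lists that follow, genes tested through CAR alone could hardly fail to rise, so the count without them stands beside each count they enter. Of 21 tested TGF beta and BMP genes 11 rose and 6 fell, or 9 and 6 of 19 without those tested through CAR alone. Bmp2 had 4.35, 3.82 and 3.65 FPKM in CAR and 0 in control-CAR (at least 60.9-fold higher), Tgfbr3 and Acvr1 rose as well, and the stress cytokine Gdf15 fell to 0.84, 0.56 and 0.71 in CAR, against 20.7, 21.71 and 23.97 in control-CAR. Of 12 Wnt genes 7 rose and 3 fell, with a median log2 fold change of 0.923, but without Fzd2 and Lef1, tested through CAR alone, it was 5 and 3 of 10 with a median of 0.041, beside 0.013 over all genes that passed outside CAR. The receptor Fzd1 had 22.6, 21.75 and 20.99 FPKM in CAR and 0.16, 0.14 and 0.16 in control-CAR. Of 15 EGF, FGF and PDGF genes 8 rose and 5 fell (6 and 5 of 13 without Areg and Erbb2, tested through CAR alone), among the rises the ligands Ereg (14.2 FPKM in CAR, 0 in control-CAR) and Areg (5.02 and 0) and the receptor Erbb2 (3.05 and 0). Of 15 axon-guidance genes 10 rose and 4 fell (6 and 4 of 11 without those tested through CAR alone), led by Epha2 with 37.82, 39.37 and 38.55 FPKM in CAR and 0 in control-CAR, at least 662-fold higher. Plxna1, a semaphorin receptor, had 66.2, 68.17 and 65.15 FPKM in CAR and 0.13, 0.13 and 0.17 in control-CAR.

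Of 8 tested epithelial-mesenchymal transcription factors 7 rose and 0 fell, the Twist and Prrx1 members apart (5 and 0 of 6 without Sox9 and Snai2, tested through CAR alone). Sox9 had 5.07, 4.88 and 5.03 FPKM in CAR and 0 in control-CAR, Snai2 1.17, 1.26 and 1.11 in CAR and 0.03, 0 and 0 in control-CAR, and Snai1 6.24, 5.41 and 6.36 against 0.73, 0.68 and 0.56. Of 12 junction and adhesion genes 8 rose and 3 fell (7 and 3 of 11 without Cdh2), with Tjp1 (ZO-1) at 10.81, 11.09 and 10.5 FPKM in CAR and 0.01, 0 and 0 in control-CAR. Of 6 HMGA and RNA-binding genes of the fetal programme 5 rose, led by Hmga2 with 46.3, 47.11 and 48.5 FPKM in CAR and 0.8, 0.72 and 0.77 in control-CAR, while Lin28a fell. All 5 tested imprinted and placental genes rose (3 of 3 without those tested through CAR alone), among them Peg10 (2.82 FPKM in CAR, 0 in control-CAR). In the list around the peptidase Cpe, 3 of 4 tested genes rose, with the opioid precursor Penk at 392.29, 394.28 and 405.11 FPKM in CAR and 0.12, 0 and 0 in control-CAR, and the convertase Furin fell. Of 5 L6 tetraspanin and integrin genes 3 rose and 1 fell (2 and 1 of 4 without Itga3), with Tm4sf1 at 127.53, 130.86 and 131.96 FPKM in CAR and 0.23, 0.43 and 0.38 in control-CAR. The fall, Itgb1, had a log2 fold change of -0.14 and turned to 0.169 on the FPKM scale. Of 5 germline and pluripotency genes both rises, Rhox5 and Sox2, were tested through CAR alone, and of the other 3 genes 0 rose and 2 fell.

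**Figure D5:**
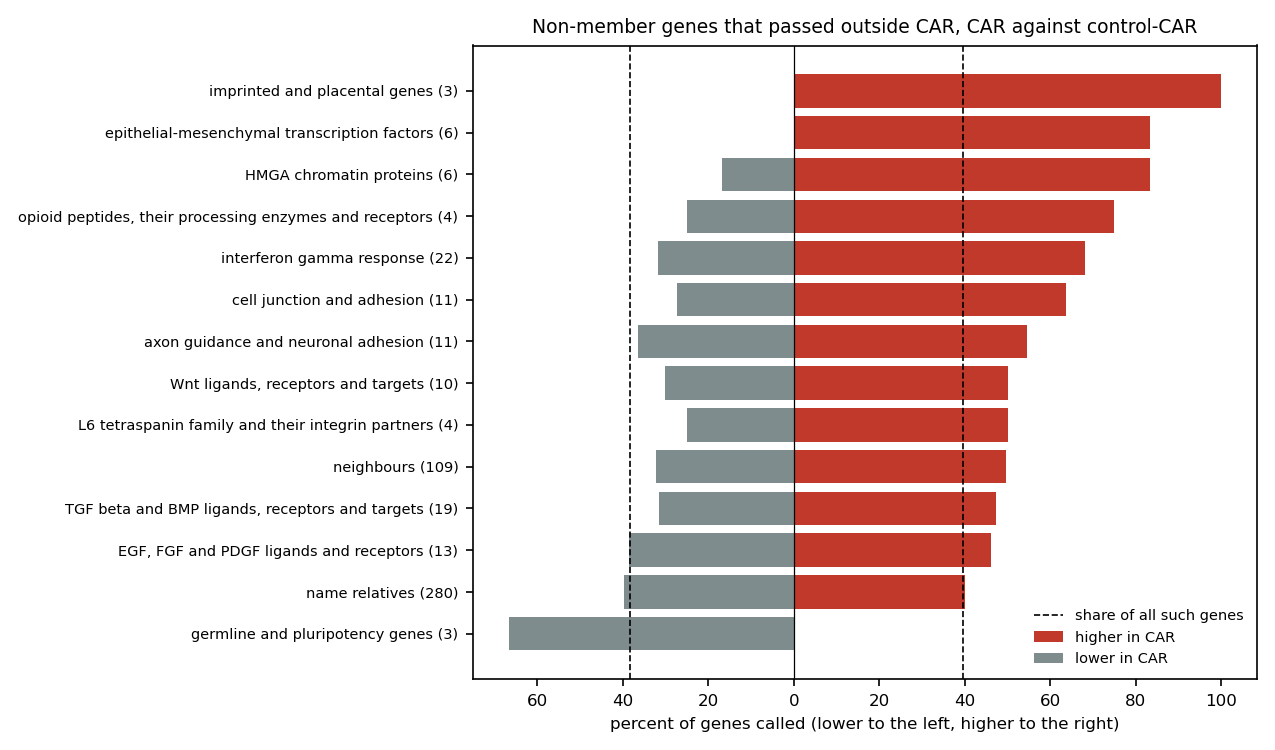
Percent of non-member genes called higher (red, right) and lower (grey, left) in CAR against control-CAR libraries, for each list with its number of genes that had at least 1 FPKM in at least 3 of the 12 other libraries. Dashed lines mark the 39.5% higher and 38.4% lower of all 11293 such genes, and name relatives lie close to both.

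Markers of cell types in which members are best known were read beside these results. The summed FPKM of 13 fibroblast markers without Vim and S100a4 ran from 55.7 to 57.4 in CAR libraries and from 17.4 to 20.6 in control-CAR, and of 10 tested fibroblast markers 5 rose and 3 fell (4 and 3 of 9 without Col6a1, tested through CAR alone). Col1a2 averaged 23.9 FPKM and Sparc 16.4 in CAR libraries, against 0.01 and 0 in control-CAR, while Col3a1, Lum and Postn averaged 0.143, 0.187 and 0.00667 in CAR. BMDM reached higher sums of these markers (60.7 to 85.8), but Thy1, whose BMDM level is given above, made up most of their mean. The sums without Thy1 were not compared. The 14 colon epithelium and tumour markers summed to 12.99 to 13.95 FPKM in CAR, 1.2 to 1.63 in control-CAR and 27.6 to 33.9 in BMDM, with Epcam and Krt8 at 0.02 and 0.0133 and Lgr5 and Cldn7 at 0 in CAR. Of the 5 tested, 4 rose and 0 fell, or 2 and 0 of 3 without Krt18 and Krt20, which were tested through CAR alone. Krt20, which meets the thresholds of the rule, had 5.51, 5.45 and 5.42 FPKM in CAR and 0 in control-CAR, Krt18 had 2.26, 2.29 and 2.2 and 0, and Cdx2, not tested, had 0.37, 0.68 and 0.24 and 0. Of 5 tested endothelial markers 2 rose and 1 fell, and Cdh5, Kdr and Tek averaged at most 0.0433 FPKM in CAR. The 13 mast-cell and basophil markers summed to 6734 to 7145 FPKM in CAR and 2757 to 2910 in control-CAR. The sum ran from 2892 to 3036 in progenitors, 2387 to 2881 in Hoxb8 macrophages and 1261 to 1449 in BMDM. No gene of this list was left out for expression in macrophages. The part of these cell types in the levels of the members was not tested.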

How the data were processed

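RNA was isolated with TRIzol, treated with DNase and selected with oligo(dT), per the labels' protocols, from 15 libraries in 5 groups of 3. Per the submitters' processing notes the authors used HISAT2, Bowtie2, RSEM 1.3.1 and DESeq2 1.4.5 with build GRCm38.p6, and the strand setting is not given in the sources used here. FPKM, TPM and estimated counts per gene were deposited by the authors, per the file headers. FPKM chose the members, TPM served as an alternative, and estimated counts, of which 94.4% to 96.0% were whole in a library, were rounded for tests. The authors' deposited group averages (15 columns) were not used.

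Members and lists were chosen with earlier results of these data known, and roles were assigned once the members were known. Genes with at least 1 FPKM in at least 3 of 15 libraries (11793 of 17030) were fitted in 1 model of 5 groups with edgeR 4.0.16 in R 4.3.3 (TMM, quasi-likelihood, two-sided, 10 residual degrees of freedom), with Benjamini-Hochberg adjustment over all of them and a threshold of 0.05. On simulated counts for CAR against control-CAR, edgeR called 98% of 50 genes changed 2-fold and 0.0776% of 11593 unchanged genes among 11793. Most genes were unchanged there, whereas 78.7% of tested genes were called between the real CAR and control-CAR libraries. The scaling when most genes differ was not tested, and counts near 0 were not tested apart. Alternatives were DESeq2 1.42.0, limma 3.58.1 on log2(FPKM + 1) and log2(FPKM + 0.1), no filter, the replicate number as a block, other thresholds and each library left out. Neighbours are the nearest gene on either side, and relatives share a symbol stem. Copies were sought with BLAST 2.17.0 among GENCODE M21 transcripts. Promoter sequences are from RefSeq. The 25 members of highest mean in CAR were named with every CAR value (1 of them is not reported here), of the others the highest of each role, and of each list up to 4 called genes, or up to 8 neighbours and relatives, of largest change. Overlapping and antisense genes cannot be told apart without strand.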

Additional observations from a re-analysis of the deposited data

How the results depend on the processing

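Of 117 alternative values for 9 counts, 113 stayed within 1.5 times the main count. The number of members, 99, became 45 with at least 10 FPKM in CAR and 227 with at least 2. By TPM it was 129, and only 85 of the 99 were among them. It was 76 with under 0.5 FPKM elsewhere, 131 with under 2, 116 by group means and 115 with no symbol left out. With a library left out it was 99 to 103, where the rule can only keep or add members. Neighbours within 50 kb gave 56 calls in place of 104, being fewer genes. Members called between control-CAR and Hoxb8 macrophages numbered 1 by limma on log2(FPKM + 0.1), against 0 by edgeR and 0 to 0 with a library left out. With a library left out, calls between CAR and control-CAR ran from 8471 to 9186 over all tested genes, from 88 to 104 in neighbours, from 212 to 239 in relatives and from 97 to 116 in the partner lists. Members called ran from 47 to 53 in BMDM against Hoxb8 macrophages, from 21 to 25 in Hoxb8 macrophages against progenitors and from 63 to 67 in BMDM against progenitors. Nothing is read from these calls on members, because the rule used the members' values.

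Same-numbered libraries did not deviate together: 30 correlations of deviations ran from -0.286 to 0.173, and in 0 of 10 pairs of groups were all over 0.1. With the replicate block edgeR called 9204 of all tested genes, 104 neighbours, 238 relatives and 114 partner genes between CAR and control-CAR. It called 53, 22, 67 and 0 members in BMDM against Hoxb8 macrophages, Hoxb8 macrophages against progenitors, BMDM against progenitors and control-CAR against Hoxb8 macrophages. Nothing is read from these calls on members either.

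Of 146 named genes 21 changed their call or sign under an alternative, 17 of them members in BMDM against Hoxb8 macrophages. Itgb1 (log2 fold change -0.14 in CAR against control-CAR) turned to 0.169 and 0.17 by limma with a pseudocount of 1 and 0.1, and Pecam1 (-0.19) to 0.112 and 0.115. The cause was not tested. The low counts of members outside CAR limit what these comparisons can detect.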

Other observations

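Hippo pathway genes, chosen after their values were seen and given without a test, were read beside Yap1, Wwtr1 and the TEAD genes. The kinases were present in both groups: Lats1 averaged 8.95 FPKM in CAR and 7.39 in control-CAR libraries, Lats2 10.4 and 7.34, Stk3 12.3 and 11.6, and Stk4 27.2 and 26.5 (n = 3 each). The scaffold Sav1 averaged 35.7 FPKM in CAR and 58.7 in control-CAR, and Nf2 (merlin) 22.4 and 15.3. Amotl1, an angiomotin, averaged 4.20 FPKM in CAR and 0.143 in control-CAR, and the LIM protein Ajuba 6.34 and 0.573, with 11.6 for Ajuba in progenitors.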
